A study of Mus musculus with 65 samples.

Results

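The Krüppel-like factors (Klf) are zinc finger transcription factors, and 10 of them were followed through cultured neural stem cells of the adult mouse brain. They were Klf3, Klf4, Klf6, Klf7, Klf9, Klf10, Klf12, Klf13, Klf15 and Klf16. Each member is the feature of the count table whose Ensembl identifier carries that symbol in the GENCODE mouse annotation, release M21; the 10 symbols were picked with earlier results of these data known. These are 10 of 31057 features, and of 17 Klf symbols in the table. All 10 passed the filter on low counts in every comparison.

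The cells were primary neural stem cells from the subventricular zone, the niche along the lateral ventricles where neurons and glia are still formed in adult rodents. All mice carried the iOSKM genotype, in which doxycycline induces Oct4 (Pou5f1), Sox2, Klf4 and Myc, the factors used to reprogram somatic cells. The study compared old with young mice, and followed brief induction and differentiation, by poly(A) RNA sequencing of 65 libraries in 15 groups. The stem cell medium was Neurobasal-A with B27, EGF and bFGF; the differentiation medium had neither growth factor and was given 18 h after plating.

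In stem cell medium, untreated cells were taken at 18 h from 5 young mice of 3 to 4 months and from 4 old mice of 25 months. Cells with doxycycline at 2 µg/ml were taken at 18 h from both ages, and at 6 h and 48 h from the old mice. In differentiation medium, untreated cells were taken at 6 h, 18 h and 48 h from both ages, and cells with doxycycline at the same times from the old mice. Mice of both sexes were used at each age, and the same mice supplied all groups of their age, so each library of a group is a different animal. The p-values measure the spread between these animals. The promoters that drive the cassette and the transactivator, and the point from which hours in stem cell medium were counted, are not given in the sources used here. Differentiated cells at 6 h had been in culture for longer than 18 h, so the removal of growth factors and the time since plating cannot be told apart.

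All Klf proteins bind GC-rich and CACCC-type DNA through 3 closely similar zinc fingers at the carboxyl end, and differ in the part that recruits coactivators or corepressors. Klf3 and Klf12 repress through the corepressor CtBP. Klf9, Klf10, Klf13 and Klf16 recruit the Sin3a histone deacetylase complex. Klf4, Klf6 and Klf7 act mainly as activators at many promoters, and Klf15 is best known for control of amino acid and glucose metabolism. In the nervous system, Klf4 and Klf9 are known to restrain neurite growth and Klf6 and Klf7 to favour it.

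The 250 bases before the start site are shown for 4 members, because the results below turn on them and their window ends before the annotated gene body. Klf15 and Klf13 had the steepest rises from stem cell medium to 6 h of differentiation, Klf4 is the member encoded by the cassette, and Klf9 differed with age in 2 comparisons. Capitals mark the GC box (GGGCGG or CCGCCC), the CACCC box (CACCC or GGGTG) and the E-box CACGTG, on either strand, and these motifs may overlap. The sequences are from RefSeq, build GRCm38.p6, which held a window for 8 of the 10 members and none for Klf10 and Klf16. Klf4 lies at chr4:55532476-55532725 on the minus strand, Klf9 at chr19:23140976-23141225 on the plus strand, Klf13 at chr7:63938916-63939165 on the minus strand and Klf15 at chr6:90462326-90462575 on the plus strand. Each is printed 5′ to 3′ on the strand of its gene.
Klf4: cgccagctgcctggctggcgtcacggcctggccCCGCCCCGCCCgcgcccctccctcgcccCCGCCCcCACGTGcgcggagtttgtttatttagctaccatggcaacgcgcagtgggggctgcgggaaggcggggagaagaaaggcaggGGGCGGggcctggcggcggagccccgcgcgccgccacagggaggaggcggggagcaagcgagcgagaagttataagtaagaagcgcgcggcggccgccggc
Klf9: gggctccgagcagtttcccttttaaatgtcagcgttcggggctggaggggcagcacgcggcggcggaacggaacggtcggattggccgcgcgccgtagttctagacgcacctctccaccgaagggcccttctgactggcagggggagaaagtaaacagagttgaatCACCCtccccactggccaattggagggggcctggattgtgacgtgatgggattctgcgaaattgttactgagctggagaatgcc
Klf13: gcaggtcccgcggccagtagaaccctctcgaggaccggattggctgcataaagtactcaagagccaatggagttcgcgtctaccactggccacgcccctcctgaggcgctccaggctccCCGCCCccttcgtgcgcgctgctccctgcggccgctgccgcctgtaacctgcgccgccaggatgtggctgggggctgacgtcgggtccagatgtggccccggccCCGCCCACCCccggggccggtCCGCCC
Klf15: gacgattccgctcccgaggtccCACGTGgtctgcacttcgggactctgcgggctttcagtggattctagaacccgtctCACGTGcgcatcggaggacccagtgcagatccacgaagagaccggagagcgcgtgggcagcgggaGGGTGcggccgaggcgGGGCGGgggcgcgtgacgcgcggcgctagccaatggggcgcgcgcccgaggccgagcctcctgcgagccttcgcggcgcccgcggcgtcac
In these windows Klf4 held 4 GC boxes, no CACCC box and 1 E-box, and Klf13 held 3 GC boxes and 1 CACCC box. The Klf15 window held 1 GC box, 1 CACCC box and 2 E-boxes, and that of Klf9 held only 1 CACCC box. Over 32851 RefSeq promoter windows of 300 bases, with 1 chromosome left out, 35.7% held a GC box, 57.5% a CACCC box and 7.15% an E-box. Counted over 300 bases as well, Klf15 held 3 E-boxes, and the other counts of the 4 members stayed the same. A match describes the letters and is not evidence of binding.

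Library totals ranged from 56483730 to 116835539 counts. Levels are given as counts-per-million (CPM), scaled by the trimmed mean of M-values over all 65 libraries. Genes that define neural stem cells were present in every group, with Sox2 at group means of 224 to 358 CPM and Nes at 92.7 to 1321 CPM. Summed levels of 6 microglial markers were 5.22 to 12.4 CPM. Csf1r had group means of 4.62 to 10.7 CPM and P2ry12 of 0.188 to 2.8 CPM, and both were detected in every library. Cx3cr1, Ptprc, Aif1 and Tmem119 were at 0 in 46, 29, 23 and 6 libraries. The transactivator M2rtTA was detected in all libraries at 79.9 to 287 CPM. Pou5f1 had group means of 0.269 to 0.791 CPM with doxycycline and 0.0619 to 0.207 CPM without. The 2A linker sequences of the cassette did not exceed 0.0423 CPM in any library. Whether reads of the cassette's Klf4 were counted under the Klf4 gene is not stated, so the Klf4 values below may hold both.

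Compared per kilobase of counted length (CPM per kb, mean ± SD), the order of the 10 genes was different in each medium. In young cells in stem cell medium at 18 h, Klf10 led at 51.4 ± 4.58, followed by Klf6 at 28.7 ± 1.67, Klf3 at 25.9 ± 1.13 and Klf9 at 19.0 ± 1.99 CPM per kb. Klf12 at 10.3 ± 0.528, Klf13 at 9.84 ± 0.608 and Klf16 at 9.72 ± 0.513 lay within their spread of each other. Klf7 had 8.59 ± 0.366, Klf4 2.09 ± 0.31 and Klf15 1.02 ± 0.138 CPM per kb. After 6 h of differentiation Klf13 led at 36.1 ± 5.71 CPM per kb and Klf10 had dropped to the eighth place at 5.3 ± 0.653. After 48 h Klf15, the last in stem cell medium, stood at 14.9 ± 1.23 CPM per kb, within its spread of Klf12 at 14.8 ± 1.17 and Klf13 at 14.1 ± 0.955. Klf4 was then the lowest at 0.526 ± 0.0336 CPM per kb. Across the 15 groups the highest mean exceeded the lowest by 28.9-fold for Klf10, 16.3-fold for Klf4 and 14.9-fold for Klf15. The least variable were Klf7 at 2.36-fold and Klf9 at 2.58-fold.

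**Figure D1:**
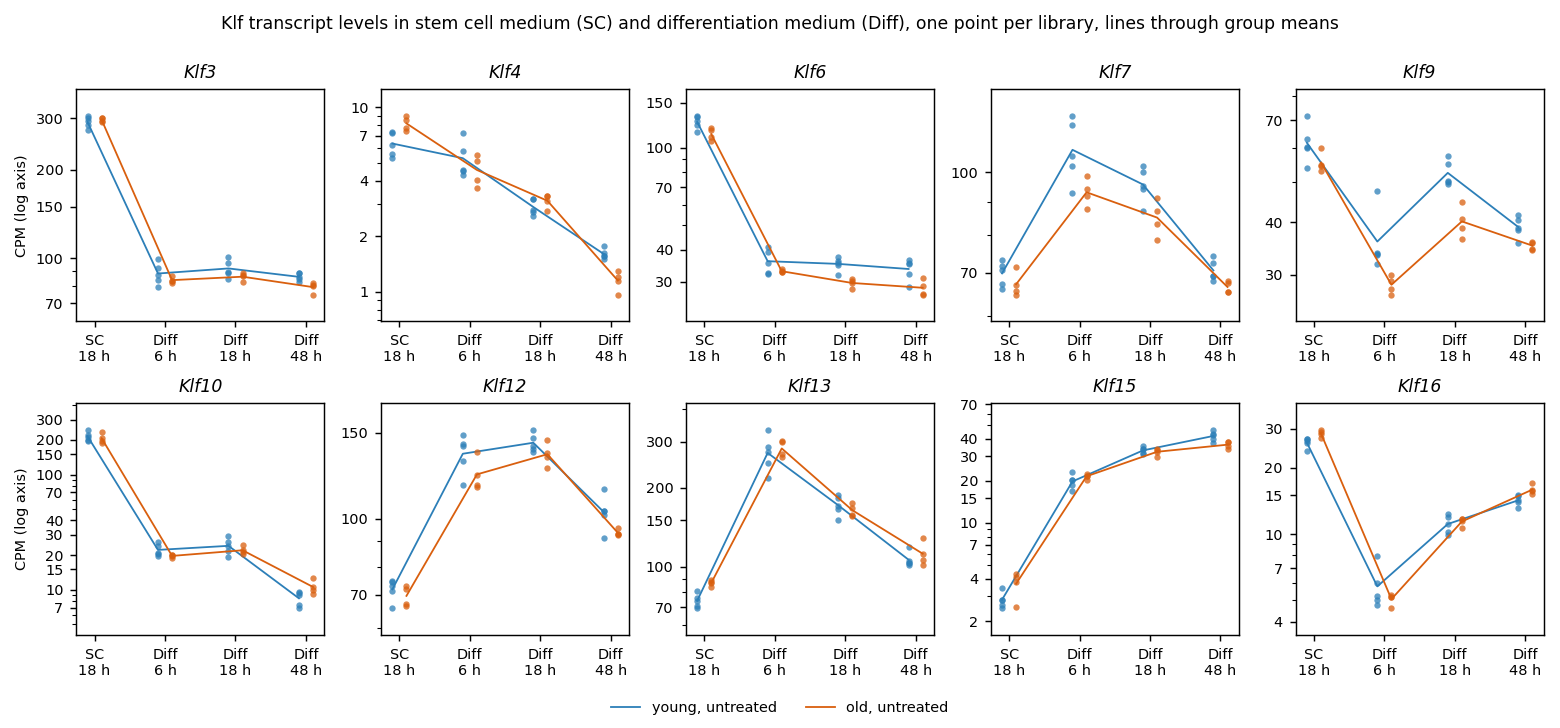
Level of each Klf gene in untreated cells, in CPM on a log axis, for stem cell medium at 18 h and differentiation medium at 6 h, 18 h and 48 h, with 1 point per animal, young and old side by side, and lines through the group means. Klf10 is at 189 to 245 CPM in stem cell medium and at 6.88 to 12.6 CPM after 48 h of differentiation, while Klf15 goes from 2.46 to 4.3 CPM up to 33.5 to 46.2 CPM.

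Between stem cell medium at 18 h and differentiation medium at 6 h, the family split. Compared with untreated cells in stem cell medium at 18 h, Klf7, Klf12, Klf13 and Klf15 were higher and Klf3, Klf6, Klf9, Klf10 and Klf16 lower in both ages (edgeR's quasi-likelihood test, adjusted p under 0.05). Klf4 was lower in old cells only by that threshold, a difference between ages that was tested below. Thus 9 of 10 members passed in young and 10 of 10 in old cells, beside 74.9% and 75.5% of all genes tested, so that most genes moved and the count of members is no sign of a family effect. The median log2 fold change of the members was -0.49 in young and -0.88 in old cells, beside 0.03 and 0.02 over all genes. In bulk RNA, a change in the make-up of the culture and a change in RNA per cell cannot be told apart. Summed levels of 7 astrocyte markers were 1918 to 2319 CPM in stem cell medium, 2800.3 to 3610.2 CPM after 6 h and 7808 to 10429 CPM after 48 h. Those of 8 neural stem cell markers were 5249.7 to 6224, 4735 to 5316 and 2951 to 4808 CPM at the same points. Those of 9 oligodendrocyte lineage markers were 2446 to 2964, 3013 to 3925 and 2880.1 to 3785 CPM, and those of 7 neuroblast markers 943 to 1108, 1085 to 1303 and 1209 to 1501 CPM. Their part in the Klf changes was not tested.

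Among the Sin3a-recruiting members, Klf10 fell the most. Klf10 (ENSMUSG00000037465, GRCm38 chromosome 15, 38291463 to 38300706, minus strand) is an early response gene of TGF-beta. It was at 210, 222, 197, 245 and 201 CPM in young cells in stem cell medium and at 19.6, 20.7, 26.0, 20.6 and 24.0 CPM after 6 h of differentiation. In old cells it was at 189, 236, 196 and 206 CPM before and at 19.6, 18.9, 20 and 20.2 CPM after. Every differentiated library was far below every library in stem cell medium, and the 2 ages lay close together. The log2 change was -3.25 ± 0.09 (SE, adjusted p = 1.1e-11) in young and -3.37 ± 0.07 (adjusted p = 8.68e-12) in old cells, ratios of means of 0.103 and 0.0951.

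Klf16 (ENSMUSG00000035397, chromosome 10, 80567124 to 80577321, minus strand), a less studied repressor of the same group, was at 27.0, 25.8, 26.5, 26.9 and 23.7 CPM in young cells in stem cell medium and at 5.23, 4.78, 7.97, 5.01 and 5.97 CPM at 6 h. Old cells had 29.0, 28.4, 27.2 and 29.7 CPM, then 5.31, 5.17, 5.2 and 4.6 CPM. No library of either state overlapped the other, with log2 changes of -2.13 ± 0.12 (adjusted p = 4.58e-09) and -2.47 ± 0.06 (adjusted p = 2.37e-11). Klf9 (ENSMUSG00000033863, chromosome 19, 23141226 to 23168134, plus strand), a gene induced by thyroid hormone and glucocorticoids, fell less. Its means went from 61.9 ± 6.48 to 36.0 ± 6.43 CPM in 5 young animals and from 55.5 ± 3.15 to 28.4 ± 1.36 CPM in 4 old animals, by -0.75 ± 0.11 and -0.94 ± 0.05 on the log2 scale. The highest young value at 6 h, 47.4 CPM in animal 5, still lay under the lowest in stem cell medium, 53.8 CPM.

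Klf13 went the other way. This member of the Sin3a group (ENSMUSG00000052040, chromosome 7, 63886351 to 63938915, minus strand) is known from T cells and heart, where it activates as well as represses. It was at 70.6, 80.8, 74.1, 75.7 and 69.2 CPM in young cells in stem cell medium and at 285, 274, 218, 333 and 248 CPM after 6 h. In old cells it was at 83.9, 86.9, 88.7 and 87.1 CPM and then at 269.9, 301, 261 and 298 CPM. The groups did not overlap, with a log2 rise of 1.91 ± 0.1 (adjusted p = 5.21e-09) in young and 1.73 ± 0.05 (adjusted p = 2.58e-11) in old cells.

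Klf15 (ENSMUSG00000030087, chromosome 6, 90462576 to 90475238, plus strand), a glucocorticoid target that controls breakdown of branched-chain amino acids and proline in liver and muscle, rose the most in relative terms. It was at 2.85, 3.46, 2.46, 2.59 and 2.84 CPM in young cells in stem cell medium and at 20.2, 18.8, 16.8, 23 and 20.1 CPM after 6 h. Old cells had 3.8, 4.3, 4.14 and 2.53 CPM, then 22.5, 21.5, 20.4 and 21.7 CPM. The lowest differentiated library thus exceeded the highest in stem cell medium in both ages. The log2 rise was 2.83 ± 0.11 (adjusted p = 4.45e-11) in young cells, a ratio of means of 6.95, and 2.57 ± 0.14 (adjusted p = 3.62e-08) in old cells, a ratio of 5.82.

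The 2 CtBP-binding repressors moved in opposite directions. Klf3 (ENSMUSG00000029178, chromosome 5, 64803388 to 64832901, plus strand), which acts in blood and fat cell development, was at 274 to 306 CPM in the 5 young and 292 to 301 CPM in the 4 old libraries in stem cell medium. It stood at 79.5 to 99.4 and 82.2 to 87.0 CPM after 6 h, log2 changes of -1.69 ± 0.06 and -1.79 ± 0.03. Klf12 (ENSMUSG00000072294, chromosome 14, 99870632 to 100284679, minus strand), a repressor of the AP-2alpha gene, went from 65.7 to 74.8 CPM up to 117 to 148 CPM in young cells and from 66.6 to 73.0 up to 116 to 137 CPM in old cells. Neither gene had an overlap between the 2 states, and the rises of Klf12 were 0.95 ± 0.06 and 0.85 ± 0.05.

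The activators also parted. Klf6 (ENSMUSG00000000078, chromosome 13, 5861482 to 5870394, plus strand), an immediate early gene that can induce the cell cycle inhibitor p21, fell from 115 to 133 CPM in young and 106 to 119 CPM in old cells to 32.2 to 41.0 and 32.7 to 33.5 CPM. The log2 changes were -1.77 ± 0.07 and -1.75 ± 0.04. Klf7 (ENSMUSG00000025959, chromosome 1, 64029447 to 64122282, minus strand), needed for axon growth in several neuron types, rose by 0.66 ± 0.07 and 0.50 ± 0.05, from means of 69.9 ± 2.98 and 67.2 ± 2.95 CPM to 108 ± 11.9 and 93.1 ± 4.64 CPM. An antisense gene, Gm26649, overlaps Klf7, and since the strand setting of the counting is not stated, reads of the 2 genes cannot be told apart here.

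Klf4 (ENSMUSG00000003032, chromosome 4, 55527143 to 55532466, minus strand) had low levels throughout. It was at 5.61, 6.24, 5.29, 7.27 and 7.37 CPM in young cells in stem cell medium and at 4.31, 4.58, 4.54, 7.25 and 5.79 CPM after 6 h, and the groups overlapped (log2 change -0.23 ± 0.15, adjusted p = 0.169). In old cells it went from 7.47, 8.97, 8.5 and 7.74 CPM to 4.03, 5.09, 3.66 and 5.51 CPM without overlap (-0.81 ± 0.12, adjusted p = 8.03e-05). With each animal as a block, the young difference also passed, at -0.24 ± 0.08 (adjusted p = 0.0146). In the fit without blocks, Klf4 also passed in young cells when young animal 4 at 6 h was left out.

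From 6 h to 18 h of differentiation the early rise of Klf13 and the early drop of Klf16 partly turned back, Klf15 kept rising and Klf4 fell. Klf13 fell by 0.67 on the log2 scale in young and by 0.78 in old cells, to means of 171 ± 14.9 and 164 ± 9.03 CPM. Klf16 rose by 0.93 ± 0.13 and 1.17 ± 0.07, to 11.1 ± 1.06 and 11.4 ± 0.481 CPM. Klf9 rose by 0.54 ± 0.1 and 0.50 ± 0.06, and Klf15 by 0.73 ± 0.07 and 0.58 ± 0.05. Klf4 fell by 0.88 and by 0.55, to 2.56 to 3.2 CPM in young and 2.73 to 3.31 CPM in old cells. In total 6 members passed in young and 8 in old cells, beside 66.5% and 67.7% of all genes. Klf3 and Klf12 did not pass at either age without blocks, with log2 changes between 0.04 and 0.13; with blocks Klf12 passed in old cells (adjusted p = 0.00145). The smallest changes that passed did so narrowly. Klf7 had -0.18 ± 0.07 (adjusted p = 0.0352) and -0.13 ± 0.05 (adjusted p = 0.0386). Its adjusted p rose to between 0.0515 and 0.0948 without any 1 of young animals 1, 4 and 5 at 6 h or 1, 2 and 4 at 18 h. In old cells it rose to between 0.0625 and 0.132 without animal 1 or 2 at 6 h, or 1, 3 or 4 at 18 h. Klf10 in old cells, 0.16 ± 0.06 (adjusted p = 0.0247), had an adjusted p of 0.0569, 0.072 and 0.0968 without animal 1 or 2 at 6 h or animal 4 at 18 h.

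From 18 h to 48 h, Klf10 dropped again and Klf4 reached its lowest level. Klf10 went to 8.93, 9.62, 6.88, 9.33 and 7.38 CPM in young cells and 10.5, 9.2, 10 and 12.6 CPM in old cells, log2 changes of -1.53 ± 0.12 (adjusted p = 6.46e-07) and -1.07 ± 0.09 (adjusted p = 7.81e-07). Klf4 went to 1.56, 1.56, 1.62, 1.51 and 1.77 CPM in young and 1.14, 1.21, 0.966 and 1.29 CPM in old cells, changes of -0.87 ± 0.1 and -1.45 ± 0.13. All 48 h libraries of both genes lay under all 18 h libraries of their age. Klf7, Klf9, Klf12 and Klf13 fell at both ages, and Klf15 and Klf16 rose. That made 2 higher and 6 lower in young cells, and 2 higher and 7 lower in old cells, beside 56.9% and 56.5% of all genes that passed. The rise of Klf15 in old cells was small, 0.15 ± 0.05 (adjusted p = 0.0237). Without animal 3 at 18 h, or animal 1 or 4 at 48 h, its adjusted p was 0.0795, 0.0637 and 0.068.

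At 18 h in both media, all 10 members differed at both ages, beside 82.6% of genes in young and 82.0% in old cells. Equal hour labels need not mean equal time since plating, so medium and time in culture cannot be told apart here. Klf15 was 11.6-fold and 8.72-fold higher in differentiation medium, and Klf10 stood at 0.112 and 0.106 of its level in stem cell medium. For Klf9 the young difference was -0.19 ± 0.07 (adjusted p = 0.0252), and -0.13 (adjusted p = 0.0544) without young animal 5 in stem cell medium.

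**Figure D2:**
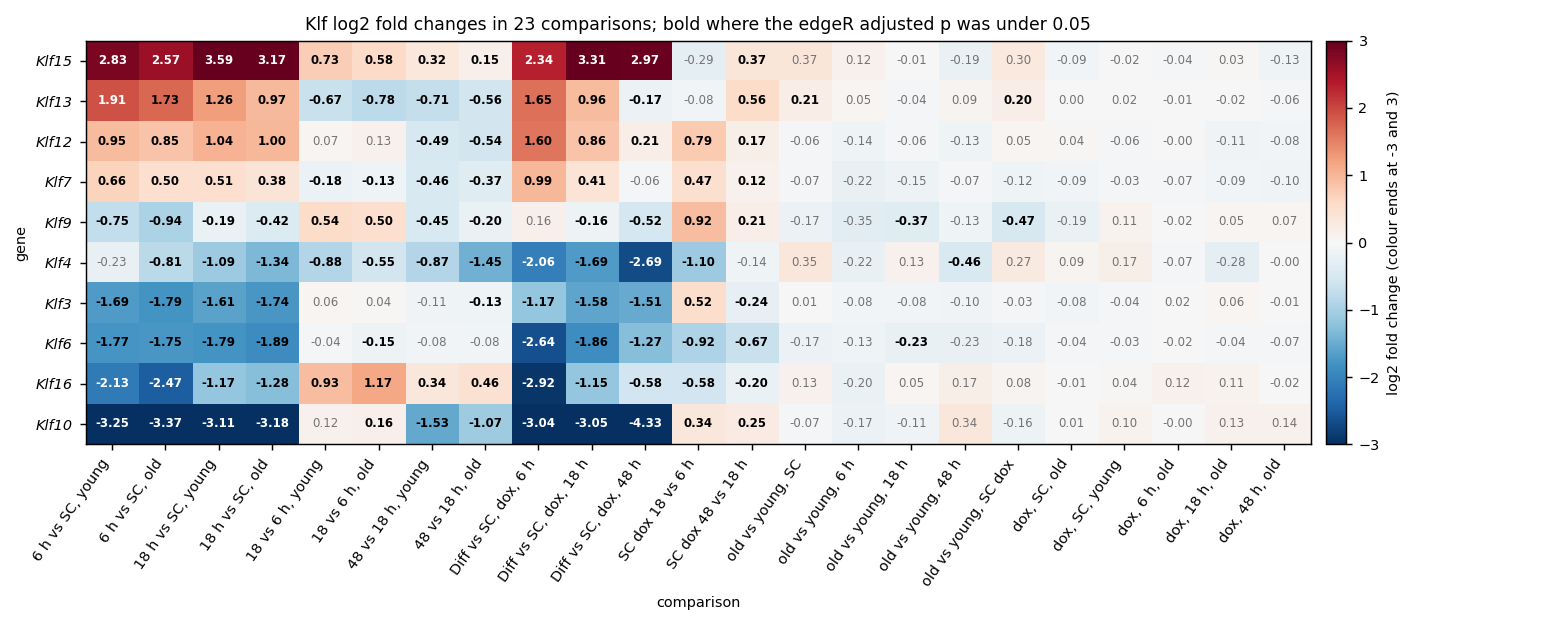
Log2 fold change of the 10 Klf genes (rows) in the 23 comparisons of 2 groups (columns), coloured from blue (lower in the first-named group) to red (higher), with bold values where edgeR's adjusted p is under 0.05. Columns that compare media or times hold large values of both signs, from -4.33 for Klf10 to 3.59 for Klf15, while no value is bold in the 5 doxycycline columns.

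The response to differentiation differed between ages for Klf4 at 48 h, a result that was not refitted with single libraries left out. The age comparison of Klf4 at 48 h, given below, lost its call in most such fits. From stem cell medium at 18 h to differentiation at 48 h, Klf4 went from a mean of 6.36 ± 0.945 to 1.6 ± 0.102 CPM in 5 young animals and from 8.17 ± 0.689 to 1.15 ± 0.139 CPM in 4 old animals. The difference between these 2 log2 changes, old minus young, was -0.82 ± 0.16 (adjusted p = 0.0103), and -0.83 ± 0.15 (adjusted p = 0.015) with animals as blocks. Klf4 was the 1 member of 10 that passed, beside 3.85% of all genes. DESeq2 also called Klf15, at -0.58 ± 0.16 (adjusted p = 0.0101), where edgeR gave -0.57 ± 0.17 (adjusted p = 0.0629). In all, DESeq2 called 1480 of 31057 features. DESeq2 was run without the filter on low counts, so 31057 includes features with few or no reads. Here and below, shares of 31057 features therefore cannot be set directly against edgeR's shares of the genes tested. Summed neural stem cell markers at 48 h were 3489 to 4808 CPM in young and 2951 to 3469 CPM in old libraries, and astrocyte markers 8745 to 10429 and 7808 to 9196 CPM; their part in the Klf4 difference was not tested. For the changes to 6 h and 18 h no member passed in edgeR, beside 0.0454% and 0.818% of all genes. At an unadjusted p under 0.05 there were 2 and 3 members, beside 1185 of 17619 and 2768 of 17726 genes. DESeq2 called 0 and 1, the latter Klf13 at -0.28 (adjusted p = 0.0396), beside 17 and 665 of 31057 features.

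In the old mice, cells in stem cell medium with doxycycline were followed at 6 h, 18 h and 48 h. There was no untreated group at 6 h or 48 h in this medium, so time in culture and time on doxycycline cannot be told apart. From 6 h to 18 h, Klf4, Klf6 and Klf16 fell and Klf3, Klf7, Klf9, Klf10 and Klf12 rose, 8 of 10 members beside 61.3% of all genes. Klf4 was at 19.9, 16.9, 21.3 and 16.6 CPM at 6 h and at 8.7, 8.43, 8.05 and 9.32 CPM at 18 h. The 6 h values were the highest Klf4 levels of all 65 libraries, and the change was -1.1 ± 0.09 (adjusted p = 2.57e-06). Klf6 was at 206, 201, 226 and 201 CPM and then at 118, 103, 107 and 107 CPM, a change of -0.92 ± 0.05 (adjusted p = 2.11e-07). Klf9 moved in the opposite direction, from 26.0, 27.7, 22.5 and 26.8 CPM to 47.5, 52.1, 46.6 and 46.6 CPM, a rise of 0.92 ± 0.07 (adjusted p = 9.97e-07). None of these groups overlapped. Over the same interval summed astrocyte markers went from 1065 to 1196 CPM up to 1789 to 1869 CPM, oligodendrocyte lineage markers from 1279.5 to 1443 up to 2517 to 2828 CPM, and neural stem cell markers from 7141 to 7780.3 down to 5267 to 5886 CPM. Their part in the Klf changes was not tested. Klf13 did not pass (-0.08 ± 0.04), nor did Klf15 (-0.29 ± 0.13, adjusted p = 0.0712), which passed with animals as blocks (adjusted p = 0.0108).

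From 18 h to 48 h in stem cell medium with doxycycline, Klf6 fell further to 70.6, 68.0, 65.1 and 66.8 CPM, a change of -0.67 ± 0.05 (adjusted p = 7.18e-07). Klf13 rose from 80.3, 89.3, 89.6 and 86.1 CPM to 129, 130.1, 120.2 and 123 CPM, by 0.56 ± 0.04 (adjusted p = 7.4e-07). Both were without overlap. Klf3 and Klf16 also fell, and Klf7, Klf9, Klf10, Klf12 and Klf15 rose by 0.12 to 0.37, so that 9 of 10 members passed beside 52.3% of all genes. Summed astrocyte markers went from 1789 to 1869 CPM up to 2191 to 2442 CPM, ependymal markers from 20 to 26.2 up to 37.9 to 42.6 CPM, and neural stem cell markers from 5267 to 5886 down to 4441 to 4588 CPM; their part in the Klf changes was not tested. Klf4, at 7.63, 8.45, 7.0 and 7.79 CPM at 48 h, did not pass (-0.14 ± 0.07, adjusted p = 0.123). Klf15 had overlapping groups (0.37 ± 0.12, adjusted p = 0.0251), and an adjusted p of 0.0679, 0.0735, 0.0538 and 0.0769 without animal 1 or 4 at 18 h, or animal 2 or 3 at 48 h.

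**Figure D3:**
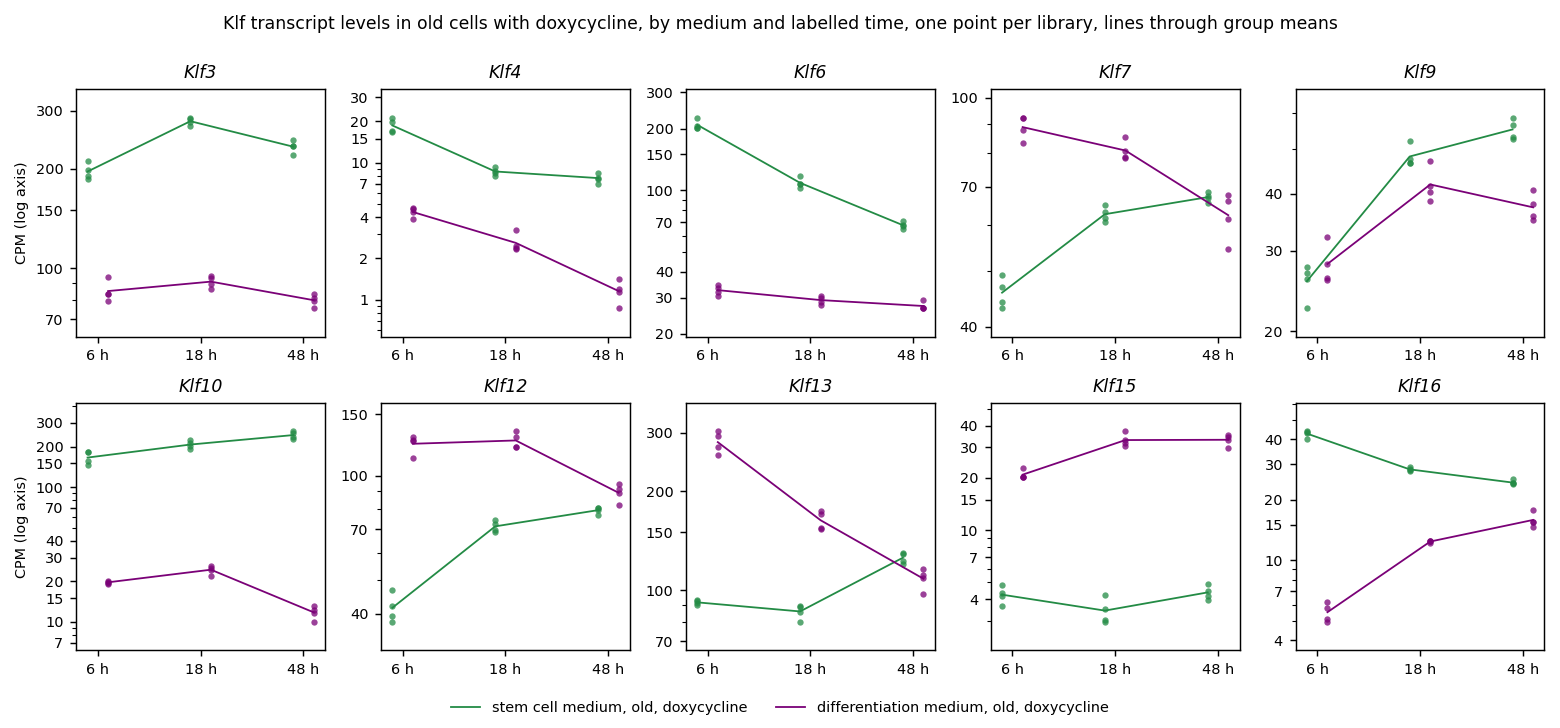
Level of each Klf gene, in CPM on a log axis, in cells of old mice with doxycycline, at 6 h, 18 h and 48 h in stem cell medium (SC) and in differentiation medium (Diff), with 1 point per animal and lines through the group means. The 2 media do not overlap at any of the 3 times for 8 members, all but Klf7 and Klf9, with Klf13 in reversed order at 48 h, and Klf4 at 6 h in stem cell medium, at 16.6 to 21.3 CPM, lies above all other Klf4 values. Between the media 80.7%, 81.5% and 76.9% of all genes passed at 6 h, 18 h and 48 h, so this count is no family trait. Overlap was not counted over all genes.

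With doxycycline present in both media, a similar split of the family was measured at 6 h and 18 h in the old cells, and a partly different one at 48 h. The differentiation medium was given 18 h after plating, so equal hour labels need not mean equal time since plating. Medium and time in culture cannot be told apart in these comparisons. Klf10 in differentiation medium was lower by 3.04, 3.05 and 4.33 on the log2 scale at 6 h, 18 h and 48 h (-3.04 ± 0.07, -3.05 ± 0.07 and -4.33 ± 0.08). At 48 h its libraries read 10, 11.7, 12.3 and 13.0 CPM there and 236, 259, 226 and 253 CPM in stem cell medium, the widest gap of any member between media. Klf15 was higher by 2.34 ± 0.08, 3.31 ± 0.11 and 2.97 ± 0.08. Klf4 was lower at all 3 times (-2.06 ± 0.1, -1.69 ± 0.11 and -2.69 ± 0.13), and at 6 h it read 3.9, 4.66, 4.34 and 4.56 CPM in differentiation medium against the 16.6 to 21.3 CPM given above. Klf16 differed by -2.92 ± 0.08 at 6 h but by -0.58 ± 0.06 at 48 h. Klf13 was higher in differentiation medium at 6 h (1.65 ± 0.05) and 18 h (0.96 ± 0.05) and lower at 48 h (-0.17 ± 0.05, adjusted p = 0.00787).

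At 6 h, 4 members were higher and 5 lower, and Klf9 did not pass, beside 80.7% of all genes. At 18 h all 10 passed, beside 81.5%; here Klf9 had only -0.16 ± 0.06 (adjusted p = 0.0276), and its adjusted p was 0.0662, 0.09 and 0.074 without animal 2, 3 or 4 in differentiation medium. At 48 h, 2 were higher and 7 lower, and Klf7 did not pass (-0.06 ± 0.07), beside 76.9%. These comparisons use animals and libraries that also enter the comparisons over time.

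Age differences in untreated cells were small beside those of medium. In stem cell medium at 18 h, Klf13 was the 1 of 10 members that passed, beside 5.95% of all genes. Its levels of 83.9 to 88.7 CPM in the 4 old and 69.2 to 80.8 CPM in the 5 young libraries did not overlap, and the log2 difference, old minus young, was 0.21 ± 0.05 (adjusted p = 0.0188). Without old animal 3, old animal 4 or young animal 1 the adjusted p was 0.059, 0.0509 and 0.0572. With doxycycline in the same medium Klf13 differed again, at 80.3 to 89.6 against 69.0 to 79.3 CPM (0.20 ± 0.05, adjusted p = 0.026). There the adjusted p was 0.0708, 0.079, 0.0689 and 0.0644 without old animal 2, 3 or 4 or young animal 1. The number of members called was 2 in untreated cells without young animal 4 or 5, and 4 with doxycycline without old animal 1. The shares of all genes in those fits are not given here. The libraries with doxycycline come from the same animals as the untreated ones and are no separate replication. In old cells Klf4 had 7.47 to 8.97 CPM and in young cells 5.29 to 7.37 CPM, also without overlap, but edgeR gave 0.35 ± 0.11 with an adjusted p of 0.076; DESeq2 called it (adjusted p = 0.0201), with Klf6 (adjusted p = 0.0302). Summed neural stem cell markers were 5249.7 to 6084 CPM in old and 5590.1 to 6224 CPM in young libraries.

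Klf9 was lower in old cells in 2 of the 5 age comparisons. In differentiation medium at 18 h it read 44.8, 40.7, 36.6 and 38.7 CPM in old and 50.3, 49.3, 55.1, 50 and 57.6 CPM in young cells. The highest old library lay under the lowest young one, and the difference was -0.37 ± 0.06 (adjusted p = 0.00887). With doxycycline in stem cell medium at 18 h it read 47.5, 52.1, 46.6 and 46.6 CPM in old and 65.6, 66.2, 57.6, 71.4 and 72.2 CPM in young cells, again apart (-0.47 ± 0.07, adjusted p = 0.0029). The summed astrocyte markers of these libraries were also apart, at 1789 to 1869 CPM in old and 1922 to 2209.5 CPM in young cells, and their part in the difference was not tested. In that comparison Klf9 and Klf13 were the 2 members that passed, beside 8.24% of all genes. Untreated cells in stem cell medium had -0.17 ± 0.07 (adjusted p = 0.181), with overlapping groups.

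At 6 h of differentiation no member passed the age comparison in edgeR, beside 1.43% of all genes. At an unadjusted p under 0.05 there were 3 members, beside 2395 of 17192 genes. DESeq2 called Klf9 there (-0.34 ± 0.11, adjusted p = 0.0355), beside 724 of 31057 features. At 18 h, Klf6 passed beside Klf9, 2 of 10 against 5.19% of all genes. It read 30.8, 30.1, 28.1 and 29.6 CPM in old and 36.1, 35.0, 37.5, 31.9 and 35.5 CPM in young cells (-0.23 ± 0.05, adjusted p = 0.0205), with an adjusted p of 0.0836, 0.0621 and 0.0535 without old animal 3, old animal 4 or young animal 1. At 48 h only Klf4 passed, beside 10.6% of all genes. It read 0.966 to 1.29 CPM in old and 1.51 to 1.77 CPM in young cells (-0.46 ± 0.13, adjusted p = 0.0383), the opposite direction to the values in stem cell medium. The call did not hold in most settings with a library left out: without any 1 library other than that of young animal 4, the adjusted p was 0.0542 to 0.115. At 48 h, 8 members had an unadjusted p under 0.05, beside 4650 of 17043 genes. Without young animal 4 edgeR called 4, and the share of all genes in that fit is not given here. DESeq2 called 5 (Klf4, Klf6, Klf10, Klf15 and Klf16), beside 2735 of 31057 features, a total that includes those with few or no reads.

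**Figure D4:**
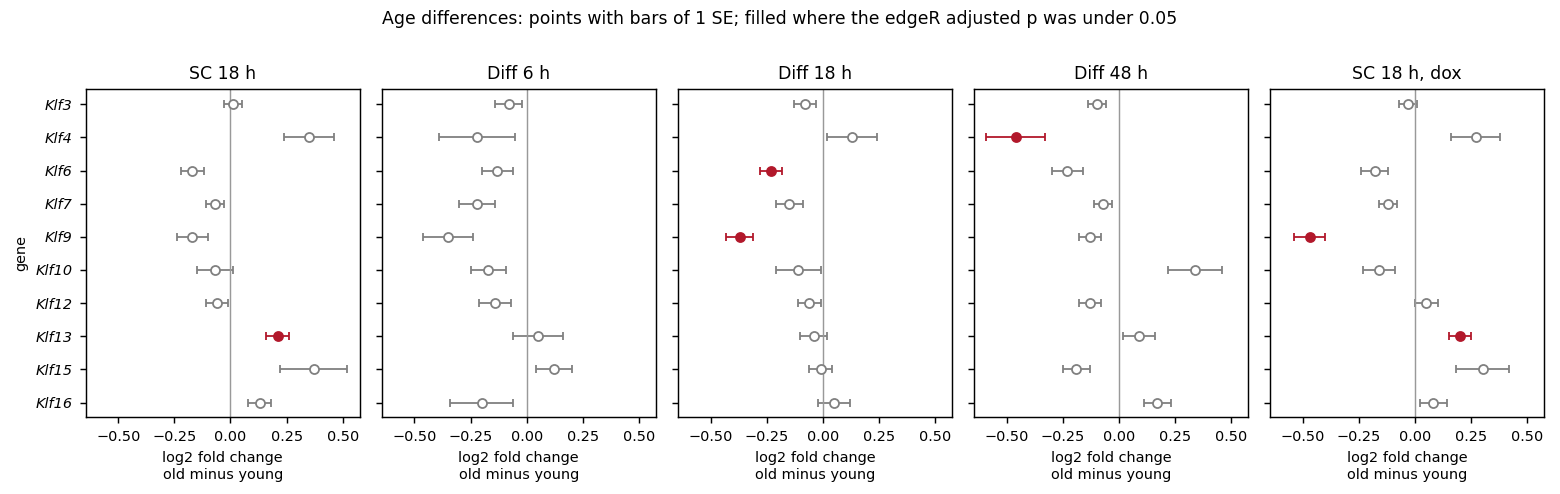
Log2 difference between old and young cells for each Klf gene in the 5 age comparisons, with points at edgeR's estimate, bars of 1 SE on either side and filled red points where the adjusted p is under 0.05. Klf9 is below 0 in all 5 panels, from -0.47 to -0.13, and passes in 2; Klf13 passes in stem cell medium with and without doxycycline.

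Doxycycline itself was compared with no doxycycline at the same time and medium in 5 settings. Without a term for the animal, no member passed in any of them in edgeR, and DESeq2 also called none. In stem cell medium at 18 h this stood beside 0.018% of all genes in old and 0.0361% in young cells. In differentiation medium it stood beside 0.0294% at 6 h, 0.0118% at 18 h and 0.0296% at 48 h. At an unadjusted p under 0.05 there were 2, 0, 0, 1 and 1 members in that order. Over all genes the numbers were 1466 of 16652, 2403 of 16621, 1507 of 17033, 1137 of 16986 and 1492 of 16889. DESeq2 called 121, 236, 88, 44 and 88 of 31057 features in the same order. Klf4, the member that doxycycline is meant to induce, did not pass in any of these comparisons, with or without blocks.

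In old cells in stem cell medium Klf4 read 8.7, 8.43, 8.05 and 9.32 CPM with doxycycline and 7.47, 8.97, 8.5 and 7.74 CPM without. By animal the log2 differences were 0.22, -0.09, -0.08 and 0.27, 2 up and 2 down, and the fitted change was 0.09 ± 0.08 (adjusted p = 0.79; 2 SE either side reach from -0.06 to 0.24). In young cells Klf4 read 6.31, 6.65, 6.09, 8.3 and 8.43 CPM with and 5.61, 6.24, 5.29, 7.27 and 7.37 CPM without doxycycline. All 5 young animals were higher with doxycycline, by 0.09 to 0.2, but the groups overlapped (0.17 ± 0.12, adjusted p = 0.555), and with animals as blocks the adjusted p was 0.0671. In the fit without blocks, 2 SE either side reach from -0.08 to 0.42 in young cells; with blocks they reach from 0.05 to 0.29 in young and from -0.04 to 0.22 in old cells.

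During differentiation of old cells, Klf4 at 6 h read 3.9, 4.66, 4.34 and 4.56 CPM with and 4.03, 5.09, 3.66 and 5.51 CPM without doxycycline (-0.07 ± 0.13). At 18 h it read 2.34, 3.21, 2.45 and 2.4 CPM with and 3.31, 2.73, 3.11 and 3.31 CPM without (-0.28 ± 0.12, adjusted p = 0.739), lower in mean but with overlap. At 48 h it read 0.871, 1.2, 1.14 and 1.42 CPM with and 1.14, 1.21, 0.966 and 1.29 CPM without (-0.00 ± 0.17). The 21 pairs of libraries from 1 animal come from 9 animals, and each old animal enters in several settings. The pairs are thus no independent replicates, the tallies carry no test, and they were not made over all genes. Klf4 was higher with doxycycline in 11 pairs and lower in 10. Other members leaned to 1 side: Klf6 was lower in 18, Klf7 in 17 and Klf12 in 15 pairs, and Klf10 was higher in 16. For Klf6 this included all 9 animals in stem cell medium, with log2 differences of -0.13 to -0.0, which did not pass with or without blocks.

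With each animal as a block, small doxycycline differences of other members passed in stem cell medium. In old cells Klf9 read 47.5, 52.1, 46.6 and 46.6 CPM with and 54.5, 60.1, 54.7 and 52.9 CPM without doxycycline. It was lower in 4 of 4 animals, by log2 differences of -0.2, -0.21, -0.23 and -0.18, and the groups did not overlap (-0.19 ± 0.03, adjusted p = 3.14e-05 with blocks and 0.331 without). Klf3 was lower in the same 4 animals, at 269 to 286 against 292 to 301 CPM (-0.08 ± 0.02, adjusted p = 0.00834). Klf7 passed too (-0.09 ± 0.03, adjusted p = 0.0281), but not without old animal 1, 2 or 4 (adjusted p = 0.126, 0.0784 and 0.132). These 3 of 10 members stand beside 11.2% of all genes with blocks. On the summed astrocyte markers the same libraries had 1789 to 1869 CPM with and 1918 to 2033 CPM without doxycycline; the part of this in the Klf differences was not tested.

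In young cells with blocks, Klf9 and Klf10 passed with the opposite sign, 2 of 10 members beside 13.6% of all genes. Klf9 was higher by 0.12, 0.14, 0.1, 0.18 and 0.01 in the 5 animals (0.11 ± 0.03, adjusted p = 0.0349) and Klf10 by 0.13, 0.04, 0.07, 0.09 and 0.19 (0.10 ± 0.03, adjusted p = 0.0234). With 1 animal fewer, the estimates stayed at 0.09 to 0.13 for Klf9 and 0.08 to 0.12 for Klf10, but most fits did not pass. For Klf9 the values were 0.11, 0.1, 0.11 and 0.09 (adjusted p = 0.0888, 0.137, 0.0803 and 0.172) without animal 1, 2, 3 or 4, and for Klf10 0.1, 0.12 and 0.1 (adjusted p = 0.0748, 0.0501 and 0.0801) without animal 1, 3 or 4.

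The doxycycline response of Klf9 itself differed between ages when animals were blocks: old minus young was -0.30 ± 0.04 (adjusted p = 0.00185), 1 of 10 members beside 3.43% of all genes. It passed with any 1 of the 9 animals left out, with adjusted p of 8.51e-06 to 0.024. Without blocks no gene of any kind passed this interaction in edgeR (0.0% of 17177 genes), and Klf9 had the same estimate with an SE of 0.1 (adjusted p = 0.435). In that fit 1 member had an unadjusted p under 0.05, beside 1516 of all genes. DESeq2 called 0 members, beside 3 of 31057 features. In differentiation medium no member passed with blocks at 6 h, 18 h or 48 h, beside 3.67%, 0.883% and 4.15% of all genes. At an unadjusted p under 0.05 there were 1, 4 and 2 members, beside 2886 of 17033, 2232 of 16986 and 2771 of 16889 genes. The difference in doxycycline response between media at 18 h was likewise passed by no member, beside 0.00566% of all genes in edgeR. There 4 members had an unadjusted p under 0.05, beside 1768 of 17657 genes. DESeq2 called 0 members, beside 119 of 31057 features.

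**Figure D5:**
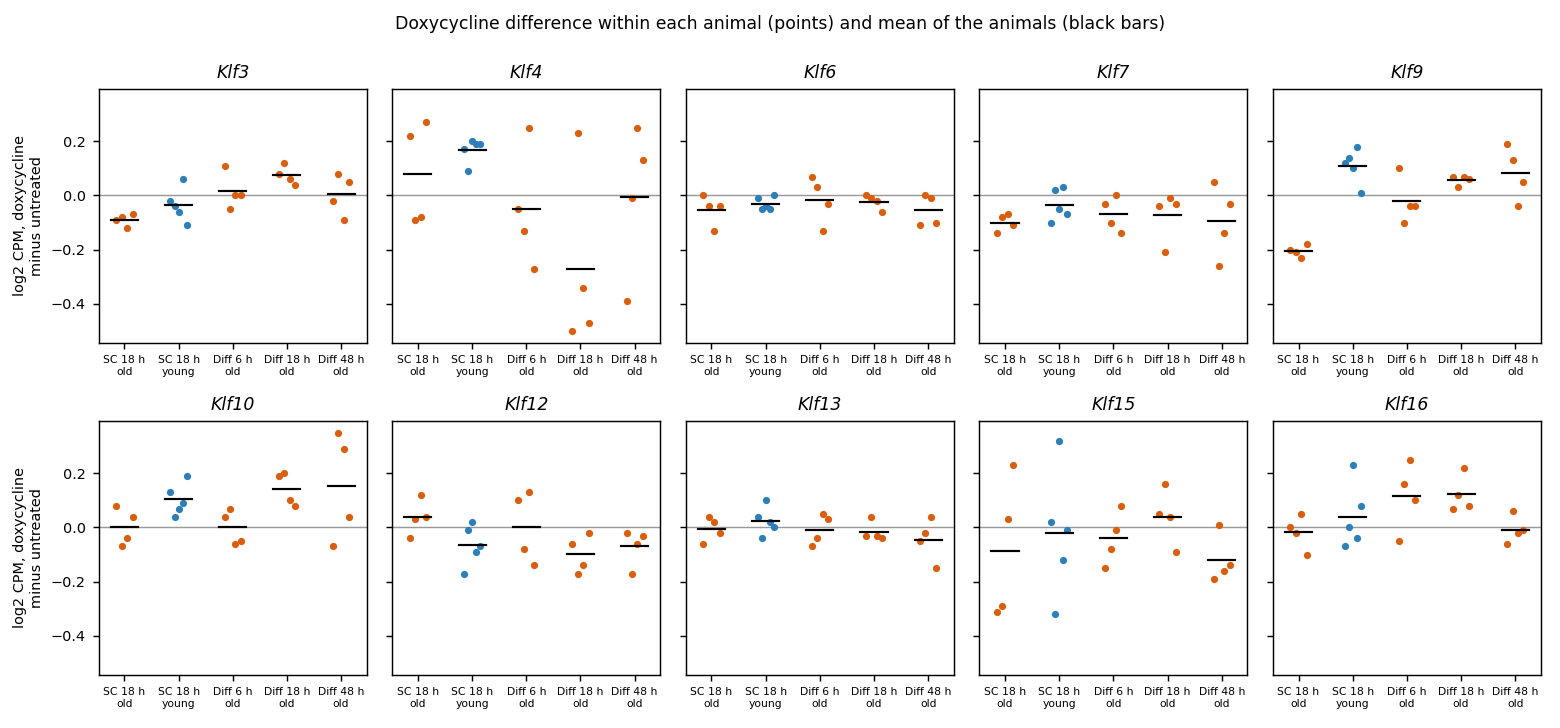
Log2 CPM with doxycycline minus without, for each Klf gene and each animal, in stem cell medium at 18 h for young (5) and old (4) mice and in differentiation medium at 3 times for old mice, with black bars at the mean of the animals. For Klf9 in stem cell medium all 4 old animals are below 0 (-0.23 to -0.18) and all 5 young animals above it (0.01 to 0.18).

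Genes linked to the Klf factors as relatives, partners, inducers or known targets were taken from 7 lists with 82 symbols. The relatives, the other Klf genes and the Sp factors, are described further below without counts of calls. For the rest, counts are given for the step from stem cell medium to 6 h of differentiation, young then old. Over all genes this step called 74.9% in young and 75.5% in old cells, with median log2 changes of 0.03 and 0.02, and the counts below are to be read against these shares. Of 11 corepressor genes, 1 was higher and 8 lower at both ages, with a median log2 change of -0.32 and -0.36. Ctbp2, a partner of Klf3 and Klf12, had -0.78 and -0.84, Rcor1 -0.77 and -0.69, Sap30 of the Sin3a complex -0.46 and -0.49, and the demethylase gene Kdm1a rose by 0.35 and 0.37. Of 16 genes of the TGF-beta pathway, which induces Klf10, 2 were higher and 11 lower in young cells, and 3 and 9 in old cells (medians -0.39 and -0.38). The receptor Tgfbr2 had -1.93 and -1.87, Smad3 -1.65 in both, the latent binding protein Ltbp1 -1.24 and -1.43, and the inhibitor Ski -0.72 and -0.85, while the feedback inhibitor Pmepa1 rose by 1.15 and 0.90.

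Beside the same 74.9% and 75.5% of all genes, the counts of the remaining lists, apart from the other Klf genes and the Sp factors, were as follows. Of 15 glucocorticoid and thyroid hormone receptors and targets, to which Klf9 and Klf15 also respond, 11 were higher and 3 lower in young cells, and 11 and 4 in old cells (medians 0.73 and 0.48). The thyroid hormone receptor Thra rose by 0.93 and 0.77, Errfi1 by 0.92 and 0.87 and the clock gene Cry2 by 0.90 and 0.88. The glucocorticoid targets Sgk1 (-1.86 and -1.44) and Fkbp5 (-1.54 and -1.63) went the other way, as Klf9 did. Of 12 genes that break down branched-chain amino acids and proline, 7 were higher at both ages and 3 and 2 lower (medians 0.46 and 0.48). Ivd rose by 1.57 and 1.65, Aldh4a1 by 1.30 in both and Bckdha by 1.24 and 1.25, while the transaminase Bcat1 had -1.27 and -1.41. Of 11 tested genes of cell cycle arrest and neurite growth, 5 were higher and 5 lower (medians 0.25 and 0.23), among them Ntrk2 at 1.41 and 1.35, Cdkn1b at 0.53 in both, Ccnd1 at -3.78 and -4.03, and Gap43 at -0.76 and -0.90.

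Of the other 7 Klf genes, Klf11, a TGF-beta-induced relative of Klf10, had the highest group mean, 34.4 CPM in young cells after 18 h of differentiation. It rose by 2.41 ± 0.12 at 6 h of differentiation at both ages, from 2.26 to 11.8 CPM in young and from 2.36 to 12.3 CPM in old cells, while Klf10 fell. Klf5 ranged from 0.538 to 13.8 CPM in group mean and was highest at 6 h in stem cell medium with doxycycline, as Klf4 was. Klf1, Klf2, Klf8, Klf14 and Klf17 had no group mean above 2.62 CPM. Among the 9 related Sp factors, group means were 117 to 172 CPM for Sp1, 103 to 124 CPM for Sp3, 19.4 to 34.0 CPM for Sp2, 12 to 22.9 CPM for Sp4 and 2.8 to 7.67 CPM for Sp9, and the other 4 stayed at or below 0.798 CPM.

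Over the 15 group means on the log2 scale, several members had parallel or opposite profiles. These correlations describe 15 points that share animals and libraries, and carry no test. Klf3 and Klf10 had r = 0.97, Klf3 and Klf6 0.92, Klf6 and Klf10 0.91, and Klf7 and Klf12 0.91. Klf15 was opposite to Klf10 and to Klf3 (r = -0.97 for each), and Klf13 to Klf16 (r = -0.93). Among the 11807 genes that averaged 5 CPM or more, the profiles most like Klf10 were those of Cap2 (0.991), Nptx2 (0.987) and Arc (0.987), and most like Klf15 those of Ric3 (0.994), Zfp37 (0.992) and Ank (0.992). Klf16 was closest to Pprc1 (0.997), Dhx33 (0.997) and Akap1 (0.993), and Klf3 to Plekhg5 (0.996), Pou3f1 (0.994) and Spr (0.991). Klf4 was closest to Itga5 (0.981), Fhl3 (0.980) and Bola1 (0.977), Klf6 to Mgat2 (0.996), Oxr1 (0.995) and Gm26541 (0.995), and Klf13 to Gpc1 (0.984), Ankmy1 (0.982) and Mtmr14 (0.979). Klf12 was closest to Trak1 (0.987), and Klf7 to its antisense neighbour Gm26649 (0.997). Klf9 had the least close matches, Iqce at 0.930, Vash1 at 0.918 and Trim62 at 0.914.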

How the data were processed

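RNA of 65 libraries was measured as counts per gene; per the submitters' processing notes the authors used build mm10, DESeq2 1.40.1, Subread, SAMtools, Trim Galore 0.6.6 and STAR 2.7.10b, and how strand was set is not given in the sources used here. The deposited counts hold more values of 2 (75644) than of 1 (19963), so that both mates of a pair appear to have been counted, and depth in fragments is lower than the totals of 56483730 to 116835539 counts. A deposited table of variance-stabilised log2 values served as an alternative. Identifiers were named from GENCODE M21: 30934 of 31057 features matched, 123 did not, and 4 were transgene features.

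Counts were tested with edgeR 4.0.16 in R 4.3.3 (quasi-likelihood, robust, TMM scaling, filterByExpr with a minimum count of 10), on the libraries of the groups compared, with 16621 to 17797 genes per fit and Benjamini-Hochberg adjustment over all of them; a gene was called at an adjusted p under 0.05. There were 23 comparisons of 2 groups and 5 interactions. The same animal supplied the libraries of a number, per the labels. In 18 pairings of groups the deviations of same-numbered libraries had median correlations of 0.57 to 0.83 and never below 0.28 (11822 genes), so the numbers pair the samples, and a blocked value is printed wherever it alters a call. Alternatives were animals as blocks, sex as a covariate in age comparisons, RLE scaling, DESeq2 1.42.0, no filter, limma 3.58.1 with trend on the deposited log2 values, and, for comparisons of 2 groups only, each library left out. Blocked fits of doxycycline and its interaction with age, each animal left out, were added after seeing the data.

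The members and lists were chosen with earlier results of these data known. All 10 members are accounted for; library values are printed for up to 3 called members of largest change per kind of comparison and for Klf4 in every doxycycline comparison, and for others chosen after their values were seen. From each list, up to 4 called genes per direction of largest change with a mean of at least 5 CPM were eligible to be named. For likeness, the 3 genes of highest Pearson r were taken. Cell type markers were checked by their summed CPM. No library pair held identical values.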

Additional observations from a re-analysis of the deposited data

Results flagged for a closer look

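In 9 of 150 sets of 1 member in 1 group, a single library stood apart from the others of its group by Dixon's criterion, which chance alone meets in about 1 of 20 sets. Klf4 with doxycycline at 18 h of differentiation was 3.21 CPM in old animal 2 and 2.34 to 2.45 CPM in the others. Klf6 with doxycycline at 48 h of differentiation was 29.1 CPM in old animal 4 and 26.7 CPM in the others. Klf9 with doxycycline in stem cell medium at 18 h was 52.1 CPM in old animal 2 and 46.6 to 47.5 CPM in the others, and this animal also had the highest untreated Klf9, 60.1 CPM. In untreated young cells, Klf9 at 6 h of differentiation was 47.4 CPM in animal 5 beside 31.8 to 33.8 CPM, and Klf13 at 48 h was 119 CPM in animal 4 beside 101 to 105 CPM. Klf15 with doxycycline at 6 h of differentiation was 22.9 CPM in old animal 4 beside 20.2 to 20.3 CPM. Klf16 stood apart 3 times: at 40.2 CPM in old animal 2 with doxycycline at 6 h in stem cell medium (others 43.1 to 43.7), at 31.1 CPM in young animal 3 with doxycycline at 18 h in stem cell medium (others 25.0 to 26.1), and at 10.7 CPM in untreated old animal 3 at 18 h of differentiation (others 11.5 to 11.7).

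The effect of a condition differed between ages by its own test for 2 members. The log2 change of Klf4 from stem cell medium at 18 h to 48 h of differentiation was larger in old cells by -0.82 without blocks and -0.83 with animals as blocks. The doxycycline response of Klf9 in stem cell medium at 18 h differed between old and young by -0.30 with animals as blocks.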

How the results depend on the processing

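In edgeR, 122 results for single members passed the threshold. With DESeq2 or with RLE scaling, all of the 127 single results that were followed kept their direction and side of the threshold, as did 125 with the deposited log2 values and 126 without the filter. RLE scaling moved the median of all genes by at most 0.029 on the log2 scale. With animals as blocks (replicate block), the doxycycline comparison in stem cell medium called 3 members in old cells and 2 in young cells in place of 0, and its interaction with age 1 in place of 0; the block changed no other count of members by more than 1.5 times. With sex as a covariate, 2 members in place of 1 passed the age comparison at 48 h of differentiation. DESeq2 called 3 in place of 1 for age in stem cell medium, 1 in place of 0 at 6 h, 5 in place of 1 at 48 h and 4 in place of 2 with doxycycline. Over all features it called 2016, 724, 2735 and 2395 in these comparisons, against 994, 246, 1815 and 1381 in edgeR. For the interaction of age with differentiation it called 1 in place of 0 at 18 h and 2 in place of 1 at 48 h. Without the filter these counts were 2 for age in stem cell medium and 0 at 48 h, where Klf4 had -0.47 (adjusted p = 0.0538). With the deposited log2 values, 3 members passed for age with doxycycline, and Klf7 from 6 h to 18 h had -0.15 in young and -0.10 in old cells and did not pass. With each library left out in turn, the age comparisons called 0 to 2 members in stem cell medium, 1 to 2 at 18 h, 0 to 4 at 48 h and 1 to 4 with doxycycline; of the single results followed, 1034 settings kept the call, 43 lost it and 5 reversed. The reversed ones were Klf4 under doxycycline in differentiating old cells, which was not called in any setting and ranged from -0.16 to 0.04 at 6 h and from -0.11 to 0.11 at 48 h: 0.04 at 6 h without untreated animal 4, and at 48 h 0.11 and 0.0 without doxycycline animal 1 or 3 and 0.02 and 0.06 without untreated animal 2 or 4. In the blocked fits with each animal left out, the doxycycline comparison called 2 to 3 members in old and 0 to 2 in young cells in stem cell medium, and 0 to 1 at 48 h of differentiation, the 1 without old animal 2. The cause of these changes was not tested. Whether cassette reads were counted under Klf4 is not stated, so induction of the cassette cannot be read from this gene alone.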
